A study of Mus musculus with 8 samples.

Results

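Genes of the bone morphogenetic protein (BMP) and transforming growth factor beta (TGF-beta) pathways were examined in stromal cells of the injured small intestine. The set held 48 genes of the 53801 listed, chosen by symbol from a fixed list of ligands, receptors, secreted antagonists, intracellular inhibitors, latent TGF-beta binding proteins and Id target genes. Each symbol matched 1 gene identifier, and 45 of the 48 passed the filter on low counts and were tested.

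RNA was sequenced from sorted stromal cells negative for CD45, carried by leukocytes, and CD31, carried by endothelium, taken from ulcers of LTβR-YFP mice. All animals had received indomethacin, a cyclooxygenase blocker known to cause small intestinal injury, and the reporter was common to all libraries; the labels give the YFP gate as the difference. YFP-positive cells were set against YFP-negative cells, with 4 libraries each, numbered 1 to 4. How YFP relates to expression of the lymphotoxin beta receptor, and the animals' strain background, age, sex and number, were not given in the sources used here.

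BMP ligands bind a pair of receptor types, which phosphorylate Smad1, Smad5 and Smad9, and Id genes are among the direct targets. TGF-beta and activin ligands act through their own receptor pairs on Smad2 and Smad3. In the intestine, fibroblasts beneath the epithelium supply BMPs toward the villus, and deeper fibroblasts near the crypt base supply antagonists such as Grem1, which allow the stem cell niche to persist.

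Total counts in genes ranged from 14564835 to 29385718 in YFP-positive and from 12481608 to 28931436 in YFP-negative libraries. Levels are given as CPM (counts scaled to library size after TMM normalisation, a correction for composition) and, where genes are compared with each other, as RPKM (CPM per kilobase of exon). Both libraries of replicate number 2 stood apart on the first principal component, at 78.7 and 92.5 against -46.2 to -12.4 for the other libraries. The summed level of 14 leukocyte markers was 30.5 to 98.2 CPM in YFP-positive and 25.2 to 41.0 CPM in YFP-negative libraries, with Itgam listed at 0 in every library. For 14 endothelial markers the sum was 42.7 to 233 CPM and 52.6 to 137 CPM, and for 15 epithelial markers 14.9 to 196 CPM and 18.6 to 43.8 CPM. The highest YFP-positive sum of both lists was in replicate 4. The other YFP-positive libraries reached at most 94.8 CPM for endothelial and 39.5 CPM for epithelial markers. The 9 fibroblast markers summed to 21963 to 35471 CPM in YFP-positive and 26644 to 52376 CPM in YFP-negative libraries.

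The question was how expression of ligands, antagonists and targets differed between stromal cells with and without YFP. In YFP-positive cells the ligand genes Bmp3, Bmp5 and Bmp7 rose, and the antagonist Grem1, the ligands Gdf6 and Tgfb3 and the co-receptor Tgfbr3 fell. These calls came from the edgeR fit that kept the replicate number as a block, with an adjusted p of 0.05 or below over all genes tested. That fit called 7 of the 45 tested members, 15.6%, against 2.28% of all genes tested. By direction it called 3 members higher and 4 lower, where 0.696% of all genes were higher and 1.59% lower. The members were chosen with earlier results of these data known, so that these shares are no test of the set. The fit without the block called 0 members and 0 of 15945 genes (0%). In it 2 members, Grem1 and Gdf6, had an unadjusted p of 0.05 or below, as did 2.04% of all genes. DESeq2 without the block also called 0 members and 0.0126% of genes; with the block it called 4 members higher and 5 lower, against 3.27% of all genes, 1.04% higher and 2.23% lower. With library sizes alone in place of TMM factors, the blocked fit called 6 members higher and 3 lower, since Bmp4, Inhba and Twsg1 were then called higher and Tgfbr3 was not called. The median log2 fold change of the tested members was -0.0063 and that of all genes 0.0048. In the following, "rose" and "fell" refer to the blocked fit with TMM factors.

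**Figure D1:**
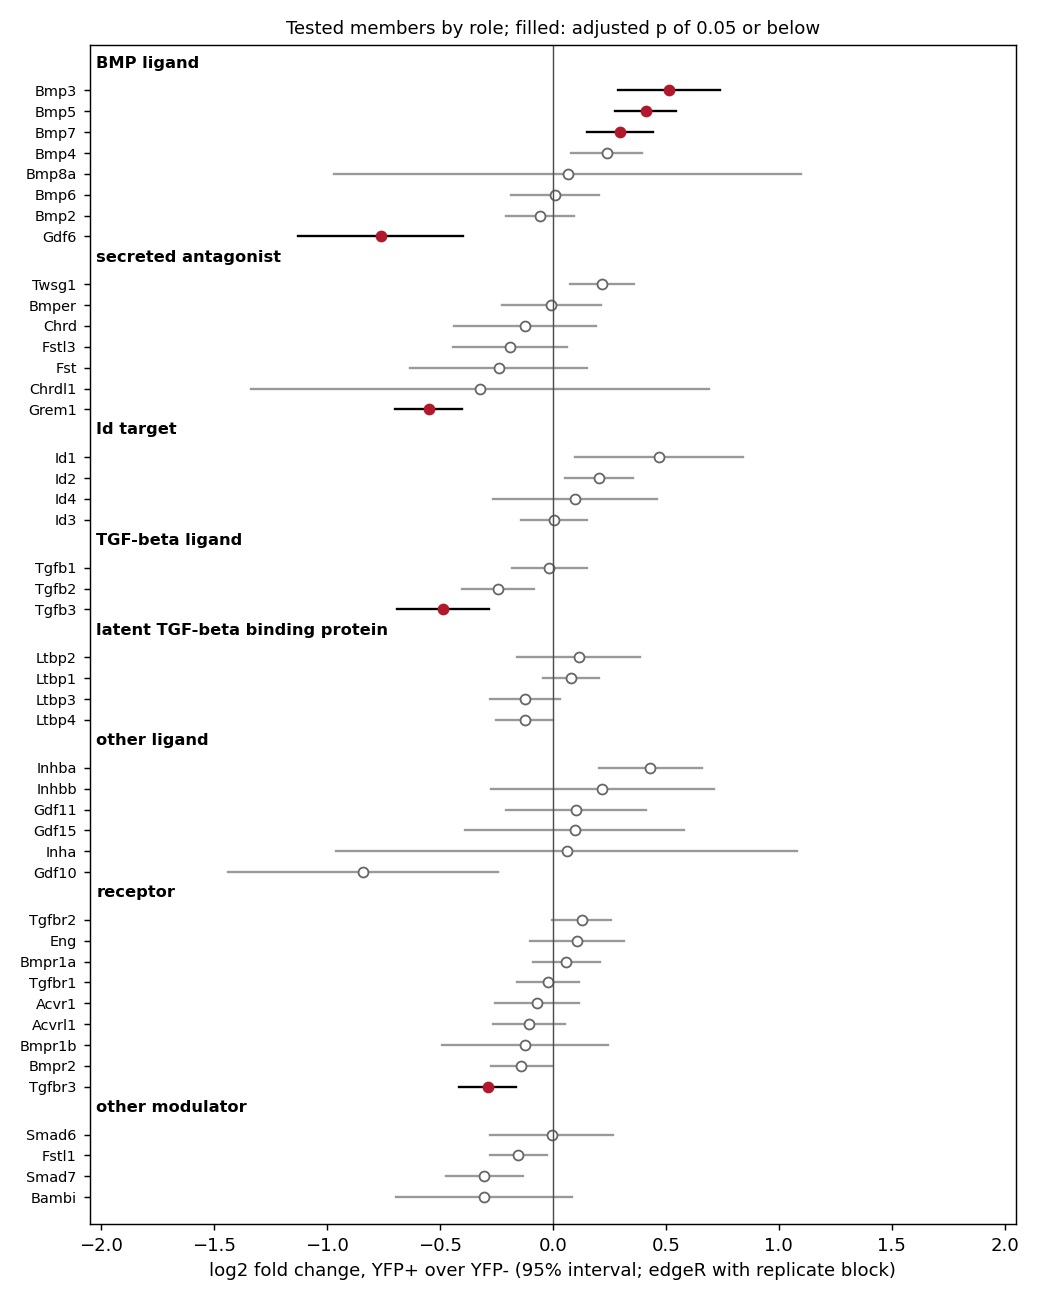
Log2 fold change of YFP-positive over YFP-negative cells for the 45 tested members, grouped by role, with the 95% interval (x axis; edgeR with the replicate number as a block). Filled points have an adjusted p of 0.05 or below: Bmp3, Bmp5 and Bmp7 lie right of 0, and Gdf6, Grem1, Tgfb3 and Tgfbr3 left of it.

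Among the 10 BMP ligand genes, 8 were tested, 3 rose, 1 fell and 4 did not pass. Bmp5, which with Bmp6 and Bmp7 forms a subfamily of BMPs, was at 253, 206, 359 and 302 CPM in YFP-positive replicates 1 to 4, against 204, 151, 267 and 219 CPM in YFP-negative replicates 1 to 4. The YFP-positive library was the higher of each pair, although the groups overlapped. Its level rose 1.33-fold (95% interval 1.21 to 1.46; adjusted p = 0.00216, edgeR with the block). The gene (ENSMUSG00000032179) lies on GRCm38 chromosome 9, 75775364 to 75900310, plus strand. Exons of Gm26903 on the opposite strand cover 1878 bases of its exons, and Gm26903 stood at 0.832 ± 0.433 CPM in YFP-positive and 0.774 ± 0.351 CPM in YFP-negative cells (SD, n = 4 each).

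Bmp3, an atypical family member that can oppose other BMPs, was at 50.0, 20.9, 37.8 and 56.6 CPM in YFP-positive replicates 1 to 4 and 36.0, 14.0, 26.1 and 40.6 CPM in YFP-negative replicates 1 to 4. Replicate 2 was the lowest library in both groups, and the YFP-positive library was higher in 4 of 4 pairs by a ratio of 1.39 to 1.49. The gene (ENSMUSG00000029335, chromosome 5, 98854415 to 98884396, plus strand) rose 1.43-fold (1.22 to 1.67; adjusted p = 0.0169, edgeR with the block). For Bmp7, values were 125, 100.3, 198 and 123 CPM in YFP-positive replicates 1 to 4, against 102, 85.3, 160 and 95.9 CPM in YFP-negative replicates 1 to 4. Replicate 3 was the highest library of both groups, and again all 4 pairs were higher in YFP-positive cells. Bmp7 (ENSMUSG00000008999, chromosome 2, 172868012 to 172940321, minus strand) rose 1.23-fold (1.11 to 1.36; adjusted p = 0.0322, edgeR with the block).

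Gdf6, a ligand related to Gdf5 with roles in joint and skeletal patterning, was the BMP ligand that fell. It was at 16.9, 12.5, 17.2 and 11.9 CPM in YFP-positive replicates 1 to 4, against 23.5, 15.3, 34.2 and 28.1 CPM in YFP-negative replicates 1 to 4. The pair of replicate 2 was closest, and its YFP-negative library lay within the range of the YFP-positive ones. Gdf6 (ENSMUSG00000051279, chromosome 4, 9844372 to 9862345, plus strand) fell to 0.590 of the YFP-negative level (0.458 to 0.760; adjusted p = 0.0274, edgeR with the block).

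Bmp4, the most abundant BMP ligand gene per length, was at 249, 127, 193 and 210 CPM in YFP-positive replicates 1 to 4, against 183, 118, 157 and 196 CPM in YFP-negative replicates 1 to 4. It was higher in 4 of 4 pairs but did not pass (1.18-fold, 1.06 to 1.32; adjusted p = 0.139, edgeR with the block); with library sizes alone it passed (adjusted p = 0.0222). Bmp2, a close relative of Bmp4, was at 200.1, 99.2, 83.6 and 116 CPM in YFP-positive replicates 1 to 4, against 203, 108, 93.0 and 111 CPM in YFP-negative replicates 1 to 4. Replicate 1 was far above the others in both groups, and the group difference was small beside it (log2 fold change -0.06, 95% interval -0.21 to 0.09; 0.03 with library sizes alone). Bmp6 averaged 49.1 ± 18.6 CPM in YFP-positive and 48.8 ± 18.6 CPM in YFP-negative cells (SD, n = 4 each). Bmp8a averaged 2.47 CPM in YFP-positive and 2.31 CPM in YFP-negative cells. Bmp8b and Gdf5 did not pass the filter, with 17 and 42 counts over the YFP-positive libraries and 7 and 8 over the YFP-negative ones.

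The antagonist genes were led by Grem1, which encodes gremlin 1, a secreted protein that binds BMPs and keeps them from their receptors. Grem1 was at 745, 553, 519 and 552 CPM in YFP-positive replicates 1 to 4, against 955, 791, 752 and 951 CPM in YFP-negative replicates 1 to 4. Every YFP-positive library lay below every YFP-negative library, though by a small gap between YFP-positive replicate 1 and YFP-negative replicate 3. It was the 1 member whose groups did not overlap, as in 1.55% of all genes tested, or 0.859% with YFP-positive cells lower. Grem1 (ENSMUSG00000074934, chromosome 2, 113746164 to 113758646, minus strand) fell to 0.684 of the YFP-negative level (0.617 to 0.758; adjusted p = 4.4e-04, edgeR with the block). No annotated gene overlaps it.

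The promoters of Bmp5 and Grem1 are printed because these members, a BMP ligand and a BMP antagonist, carried the opposite changes that kept their call in each blocked fit. Each sequence holds the 250 bases before the RefSeq start on GRCm38.p6, 5′ to 3′ on the gene's strand. Capitals mark GTCTG or its reverse complement CAGAC, the core of the Smad-binding element, and the palindrome GGCGCC, a GC-rich site bound by Smad1 and Smad5; both strands were searched, and TATAAA was searched too.
Bmp5, chr9:75775115-75775364, plus strand: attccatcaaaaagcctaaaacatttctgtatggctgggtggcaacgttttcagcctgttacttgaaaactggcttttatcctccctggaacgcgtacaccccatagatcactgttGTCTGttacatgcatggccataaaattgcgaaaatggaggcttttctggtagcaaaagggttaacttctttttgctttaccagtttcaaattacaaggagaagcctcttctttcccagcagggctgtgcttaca
Grem1, chr2:113758649-113758898, minus strand: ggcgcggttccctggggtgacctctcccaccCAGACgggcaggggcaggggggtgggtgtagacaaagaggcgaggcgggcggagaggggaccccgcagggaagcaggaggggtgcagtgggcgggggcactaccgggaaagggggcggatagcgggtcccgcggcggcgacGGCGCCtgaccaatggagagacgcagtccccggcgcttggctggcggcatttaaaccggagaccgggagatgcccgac
The Bmp5 window held 1 GTCTG and 0 GGCGCC matches at 42.8% GC, and the Grem1 window 1 of each at 72.0% GC. Of 32851 windows of this length before RefSeq starts, 42.2% held GTCTG, 9.59% GGCGCC and 12.4% TATAAA, so that a GTCTG match is common. Neither window held TATAAA.

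Other antagonists did not pass. Chrdl1, a chordin-like BMP inhibitor, was at 9.06, 5.52, 4.76 and 8.63 CPM in YFP-positive replicates 1 to 4, against 15.2, 1.36, 9.21 and 15.5 CPM in YFP-negative replicates 1 to 4. In 3 of 4 pairs YFP-positive cells were lower, the exception being replicate 2 (log2 fold change -0.32, -1.34 to 0.69). Without both libraries of replicate 2 the log2 fold change was -0.85, with an adjusted p of 0.0381 (edgeR with the block). Follistatin, encoded by Fst, binds activins and some BMPs. Fst was at 21.3, 30.3, 19.4 and 7.44 CPM in YFP-positive replicates 1 to 4, against 23.6, 32.2, 16.3 and 15.3 CPM in YFP-negative replicates 1 to 4, with overlapping groups and 3 of 4 pairs lower. Its log2 fold change was -0.24 (-0.63 to 0.15). Twsg1, which binds BMPs together with chordin, averaged 179 ± 34.7 CPM in YFP-positive and 154 ± 27.5 CPM in YFP-negative cells (SD, n = 4 each). It was the tested antagonist that was higher in 4 of 4 pairs (adjusted p = 0.134 with the block, and 0.0381 with library sizes alone, edgeR). Chrd, Fstl3 and Bmper had log2 fold changes of -0.12, -0.19 and -0.01 in the blocked fit; that of Bmper was 0.08 with library sizes alone. Nog, the gene of the BMP antagonist noggin, was too low to test. It was at 0, 1.24, 0.160 and 0 CPM in YFP-positive replicates 1 to 4, against 0, 1.28, 0.371 and 0 CPM in YFP-negative replicates 1 to 4, which is 22 and 26 counts in all. Replicate 2 was the highest library in both groups.

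**Figure D2:**
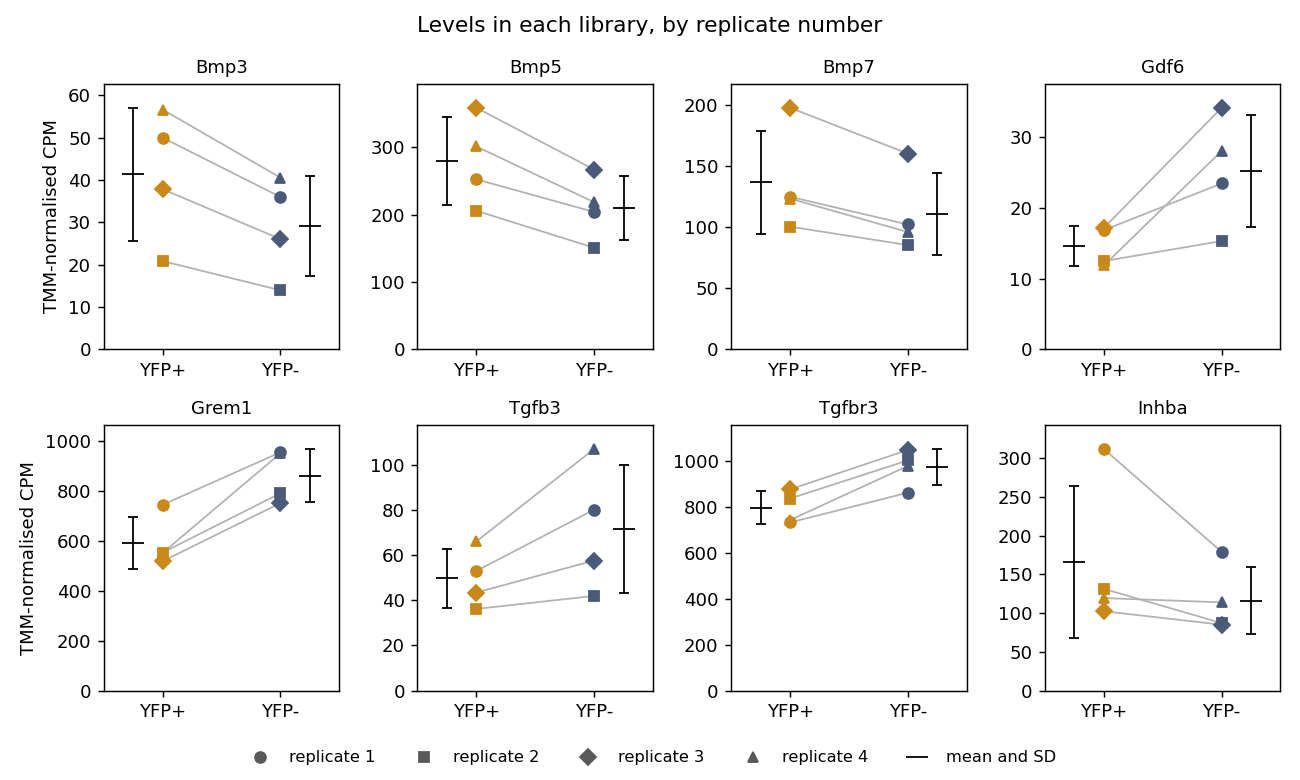
Level in each library (y axis, TMM-normalised CPM) of the 7 members called with the replicate block and of Inhba, with lines joining libraries of equal replicate number and bars for mean and SD. In Bmp3, Bmp5, Bmp7 and Inhba each YFP-positive library lies above its partner, and in Gdf6, Grem1, Tgfb3 and Tgfbr3 below it.

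Among the 8 secreted antagonist genes of the set, Grem1 had the highest level per length. Grem1 made up 63.9% to 72.1% of their summed RPKM in YFP-positive and 73.2% to 78.9% in YFP-negative libraries. The antagonists summed to 249, 186, 196 and 198 RPKM in YFP-positive replicates 1 to 4, against 301, 243, 248 and 291 RPKM in YFP-negative replicates 1 to 4. The sum was lower in YFP-positive cells in 4 of 4 pairs, and without Grem1 it was 64.6 ± 8.15 RPKM in YFP-positive and 62.6 ± 7.97 RPKM in YFP-negative cells (SD, n = 4 each).

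The 10 BMP ligand genes together gave 287, 178, 267 and 263 RPKM in YFP-positive replicates 1 to 4, against 241, 158, 225 and 229 RPKM in YFP-negative replicates 1 to 4. Replicate 2 was the lowest in both groups, and the YFP-positive sum was the higher in 4 of 4 pairs. Bmp4 held 34.5% ± 3.24 of the ligand sum in YFP-positive and 34.0% ± 2.92 in YFP-negative cells, and Bmp5 28.1% ± 4.72 and 24.5% ± 3.55 (SD, n = 4 each).

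The log2 ratio of ligands to antagonists was 0.20, -0.06, 0.45 and 0.41 in YFP-positive replicates 1 to 4, against -0.32, -0.62, -0.14 and -0.34 in YFP-negative replicates 1 to 4. The groups did not overlap. Within pairs the ratio was higher in YFP-positive cells by 0.53, 0.55, 0.59 and 0.75, a mean of 0.60 ± 0.099 (SD, n = 4 pairs). With Grem1 left out of the antagonists the mean difference was 0.17. The sign and size of the ratio depended on which antagonists were summed. Nbl1, a secreted BMP antagonist related to gremlin that was not among the 48 genes, was at 113 ± 19.8 RPKM in YFP-positive and 98.9 ± 17.6 RPKM in YFP-negative cells (SD, n = 4 each) and higher in 4 of 4 pairs (adjusted p = 0.184, edgeR with the block). With Nbl1 added, an alternative chosen after seeing the data, the ratio was -0.69 to -0.17 in YFP-positive and -1.07 to -0.59 in YFP-negative libraries, so that the groups overlapped and antagonists exceeded ligands in every library. The mean difference was then 0.42, higher in 4 of 4 pairs, and Grem1 held 39.1% to 51.3% of the antagonist sum in YFP-positive and 53.5% to 59.0% in YFP-negative libraries. No p is given for the ratio, which is a sum over chosen genes. The ratio counts Bmp3 as a ligand, although Bmp3 can oppose other BMPs. It counts Fst as an antagonist, although follistatin also binds activins. A transcript ratio is not a ratio of active proteins.

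**Figure D3:**
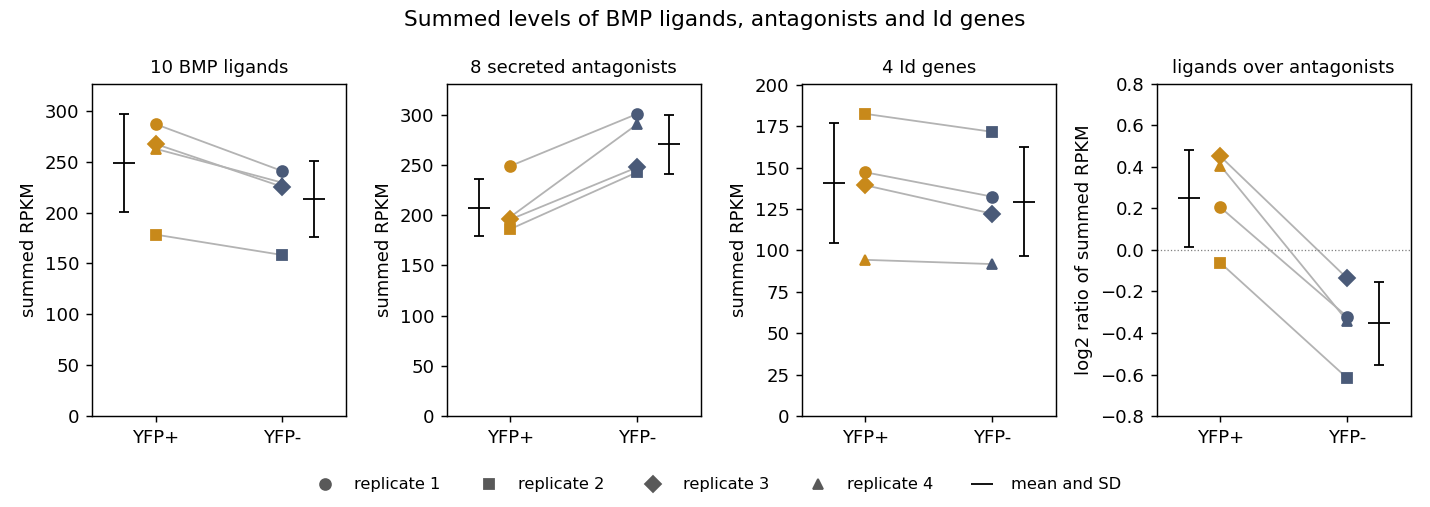
Summed RPKM of 10 BMP ligand genes, 8 secreted antagonist genes and 4 Id genes, and the log2 ratio of ligands to antagonists, in each library, with lines joining equal replicate numbers and bars for mean and SD. The ligand sum is higher and the antagonist sum lower in each YFP-positive library than in its partner, and the ratio lies at -0.06 to 0.45 in YFP-positive and -0.62 to -0.14 in YFP-negative libraries.

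None of the 4 Id genes, whose proteins block basic helix-loop-helix transcription factors, passed the test. Id1 was at 17.7, 20.1, 21.8 and 8.39 CPM in YFP-positive replicates 1 to 4, against 13.4, 18.2, 12.2 and 5.97 CPM in YFP-negative replicates 1 to 4. Id2 was at 133, 171, 107 and 81.8 CPM in YFP-positive replicates 1 to 4, against 114, 158, 89.7 and 69.6 CPM in YFP-negative replicates 1 to 4. YFP-positive cells were higher in 4 of 4 pairs for both, as for 8.86% of all genes, while their groups overlapped. Their log2 fold changes were 0.47 (0.10 to 0.84; adjusted p = 0.259) and 0.20 (0.06 to 0.35; adjusted p = 0.202, edgeR with the block).

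Id3, the most abundant Id gene per length, was at 131, 161, 129.8 and 91.1 CPM in YFP-positive replicates 1 to 4, against 126, 156, 127 and 98.4 CPM in YFP-negative replicates 1 to 4. The groups covered nearly the same range, and 3 of 4 pairs were higher in YFP-positive cells. The 95% interval of its log2 fold change, -0.14 to 0.15, bounded a change at 0.907-fold to 1.11-fold. Id4 averaged 15.6 ± 3.70 CPM in YFP-positive and 14.3 ± 1.55 CPM in YFP-negative cells (SD, n = 4 each). Summed over the 4 genes, Id transcripts were at 141 ± 36.2 RPKM in YFP-positive and 130 ± 33.0 RPKM in YFP-negative cells, and higher in 4 of 4 pairs. Replicate 2, which stood apart on the first principal component, had the lowest ligand sum and the highest Id sum in both groups. Among replicates 1, 3 and 4, replicate 1 had the highest of both sums in both groups. In YFP-positive replicates 1, 3 and 4 the ligand sums were 287, 267 and 263 RPKM and the Id sums 147, 139 and 94.3 RPKM. In YFP-negative replicates 1, 3 and 4 they were 241, 225 and 229 RPKM and 133, 122 and 91.8 RPKM. The inhibitory Smad genes, also induced by the pathway, did not pass. Smad6 was at 34.8 ± 7.40 and 34.7 ± 6.29 CPM and Smad7 at 74.2 ± 25.1 and 90.2 ± 25.3 CPM in YFP-positive and YFP-negative cells (SD, n = 4 each). Smad7 was lower in 4 of 4 pairs (adjusted p = 0.0650 with edgeR and the block, 0.0344 with DESeq2 and the block).

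Of the 3 TGF-beta ligand genes, Tgfb3 fell and Tgfb1 and Tgfb2 did not pass. Tgfb3 was at 53.0, 36.2, 43.4 and 66.0 CPM in YFP-positive replicates 1 to 4, against 80.1, 41.9, 57.6 and 107 CPM in YFP-negative replicates 1 to 4. Each YFP-positive library was the lower of its pair, while the groups overlapped. Tgfb3 (ENSMUSG00000021253, chromosome 12, 86056745 to 86079041, minus strand) fell to 0.714 of the YFP-negative level (0.621 to 0.821; adjusted p = 0.0117, edgeR with the block). Genes on the opposite strand cover 420 bases of its exons. One of them, Ttll5, was at 36.9 ± 4.57 CPM in YFP-positive and 36.7 ± 4.76 CPM in YFP-negative cells.

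Tgfb2 was at 105, 124, 72.2 and 73.7 CPM in YFP-positive replicates 1 to 4, against 140, 144, 79.6 and 83.6 CPM in YFP-negative replicates 1 to 4. It was lower in 4 of 4 pairs, a pattern shown by 10.2% of all genes, and missed the threshold (log2 fold change -0.24, -0.40 to -0.08; adjusted p = 0.145, edgeR with the block). Tgfb1 was at 88.4, 127, 76.6 and 49.2 CPM in YFP-positive replicates 1 to 4, against 96.2, 129, 69.1 and 51.6 CPM in YFP-negative replicates 1 to 4. Replicate 2 was highest and replicate 4 lowest in both groups, and the log2 fold change was -0.02 (-0.18 to 0.15; 0.07 with library sizes alone). Per length the 3 ligand genes stood close together, at 17.9 RPKM for Tgfb3, 17.7 for Tgfb2 and 17.0 for Tgfb1 over all libraries, with differences smaller than the spread between libraries. The latent TGF-beta binding proteins, which tether the latent ligand to the matrix, did not pass. Ltbp4 averaged 823 ± 190 CPM in YFP-positive and 893 ± 180 CPM in YFP-negative cells, and Ltbp1 956 ± 50.7 and 903 ± 28.9 CPM (SD, n = 4 each). Ltbp2 and Ltbp3 had log2 fold changes of 0.12 and -0.12.

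Among the other ligands, Inhba, the gene of the activin A subunit, was at 312, 131, 102 and 119 CPM in YFP-positive replicates 1 to 4, against 179, 87.2, 85.1 and 114 CPM in YFP-negative replicates 1 to 4. It was higher in 4 of 4 pairs, and YFP-positive replicate 1 was far above the other libraries. The log2 fold change was 0.43 (0.20 to 0.66; adjusted p = 0.0597 with edgeR and the block, 0.00560 with DESeq2 and the block), and 0.31 without both libraries of replicate 1. Gdf10, a relative of Bmp3, averaged 5.31 ± 1.96 CPM in YFP-positive and 11.8 ± 10.9 CPM in YFP-negative cells (SD, n = 4 each), with 27.6 CPM in YFP-negative replicate 1. Its log2 fold change was -0.84 (adjusted p = 0.191, edgeR with the block), -0.46 without both libraries of replicate 1 and -1.08 without those of replicate 2 (adjusted p = 0.0299). Gdf11, Gdf15, Inhbb and Inha had log2 fold changes of 0.10, 0.10, 0.22 and 0.06 in the blocked fit.

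Of 9 receptor genes tested, Tgfbr3 fell and 8 did not pass. Tgfbr3 encodes betaglycan, a co-receptor that presents TGF-beta ligands and binds inhibin. Over all 8 libraries it had the highest mean RPKM of the receptor genes, while in YFP-positive cells Tgfbr2 was higher. It was at 733, 838, 878 and 744 CPM in YFP-positive replicates 1 to 4, against 863, 1004, 1049 and 979.7 CPM in YFP-negative replicates 1 to 4. Only YFP-negative replicate 1 lay within the range of the YFP-positive libraries. Tgfbr3 (ENSMUSG00000029287, chromosome 5, 107106570 to 107289629, minus strand) fell to 0.819 of the YFP-negative level (0.750 to 0.895; adjusted p = 0.0171, edgeR with the block). With library sizes alone it was not called (adjusted p = 0.0822).

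Tgfbr2, the ligand-binding TGF-beta receptor, was at 140.2 ± 40.2 RPKM in YFP-positive and 127 ± 30.3 RPKM in YFP-negative cells, where Tgfbr3 was at 122 ± 10.8 and 149 ± 12.1 RPKM (SD, n = 4 each). It was higher in 4 of 4 pairs and did not pass (log2 fold change 0.13, -0.0014 to 0.26). The BMP receptors Bmpr1a, Bmpr2 and Acvr1 and the TGF-beta receptor Tgfbr1 had log2 fold changes of 0.06, -0.14, -0.07 and -0.02 in the blocked fit, and Bmpr1b, present at 15.3 ± 9.04 and 16.1 ± 8.04 CPM, of -0.12. Signs of Acvr1 and Tgfbr1 turned with library sizes alone, to 0.02 and 0.07. Acvrl1 and Eng, receptor genes known best from endothelium, were at 86.1 ± 12.5 and 110 ± 20.3 CPM in YFP-positive and 92.3 ± 9.11 and 101 ± 6.37 CPM in YFP-negative cells. Of the 14 endothelial markers 12 were tested, 1 rose and 0 fell, and 8 had a log2 fold change above 0. Tek, Lyve1, Flt4 and Prox1 lay below 0, at -0.44, -1.33, -0.26 and -0.06. The summed level of the list was higher in YFP-positive cells in 2 of 4 pairs. The list, Rapgef5 included, was chosen with earlier results of these data known, so that its calls are no independent measure of endothelial cells. Rapgef5 rose, at 12.6 ± 14.2 CPM in YFP-positive and 1.46 ± 1.32 CPM in YFP-negative cells (SD, n = 4 each), and was higher in 4 of 4 pairs (adjusted p = 3.1e-04, edgeR with the block). Kdr and Esam were also higher in 4 of 4 pairs, and Esam did not overlap between groups, while Pecam1 and Cdh5 were higher in 2 of 4; the levels of these markers in YFP-positive cells were 5.07, 5.54, 28.6 and 11.6 CPM, against 1.86, 2.53, 25.9 and 4.70 CPM in YFP-negative cells. Their part in the levels of Acvrl1 and Eng was not tested. Of the remaining modulators, Fstl1, a secreted follistatin relative, was at 711 ± 94.6 and 788 ± 78.6 CPM and lower in 4 of 4 pairs (adjusted p = 0.297, edgeR with the block), and the pseudoreceptor gene Bambi had a log2 fold change of -0.30 (-0.70 to 0.09).

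**Figure D4:**
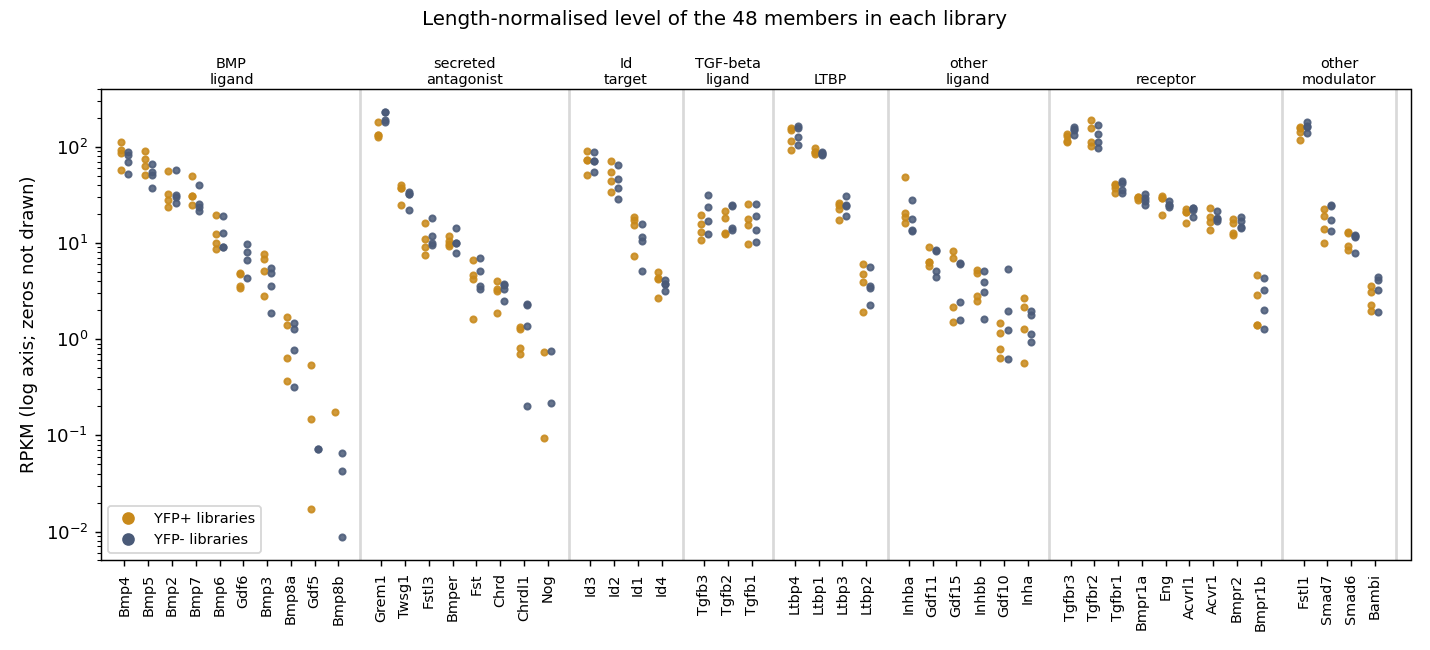
RPKM (log axis) of the 48 members in each library, by role, with YFP-positive libraries left of YFP-negative ones for each gene; LTBP stands for latent TGF-beta binding proteins and zeros are not drawn. Grem1, Fstl1, Tgfbr3, Tgfbr2 and Ltbp4 lie at the top, and Bmp8b, Gdf5 and Nog at the bottom.

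For most members the replicate number held more of the spread between libraries than the YFP gate did. Of the spread of log2 CPM over the 8 libraries, the replicate number held a median of 82.5% for the tested members and the group 6.02%, against 72.4% and 4.35% for all genes tested. The replicate number, with 4 levels, takes a larger share of pure noise than the group does. The shares were not corrected for this. For Bmp2, Bmp6, Tgfb1 and Id3 the replicate number held 98.7%, 99.4%, 98.9% and 98.4%. By these uncorrected shares Grem1, Tgfbr3 and Gdf6 were the exceptions, with 69.7%, 64.1% and 53.9% held by the group. Ltbp1 and Bmp5 came next, with 35.6% and 32.4%. Tgfb1, Id2 and Id3 were highest in replicate 2 and lowest in replicate 4 in both groups, whereas Bmp3, Bmp5 and Tgfb3 were lowest in replicate 2.

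**Figure D5:**
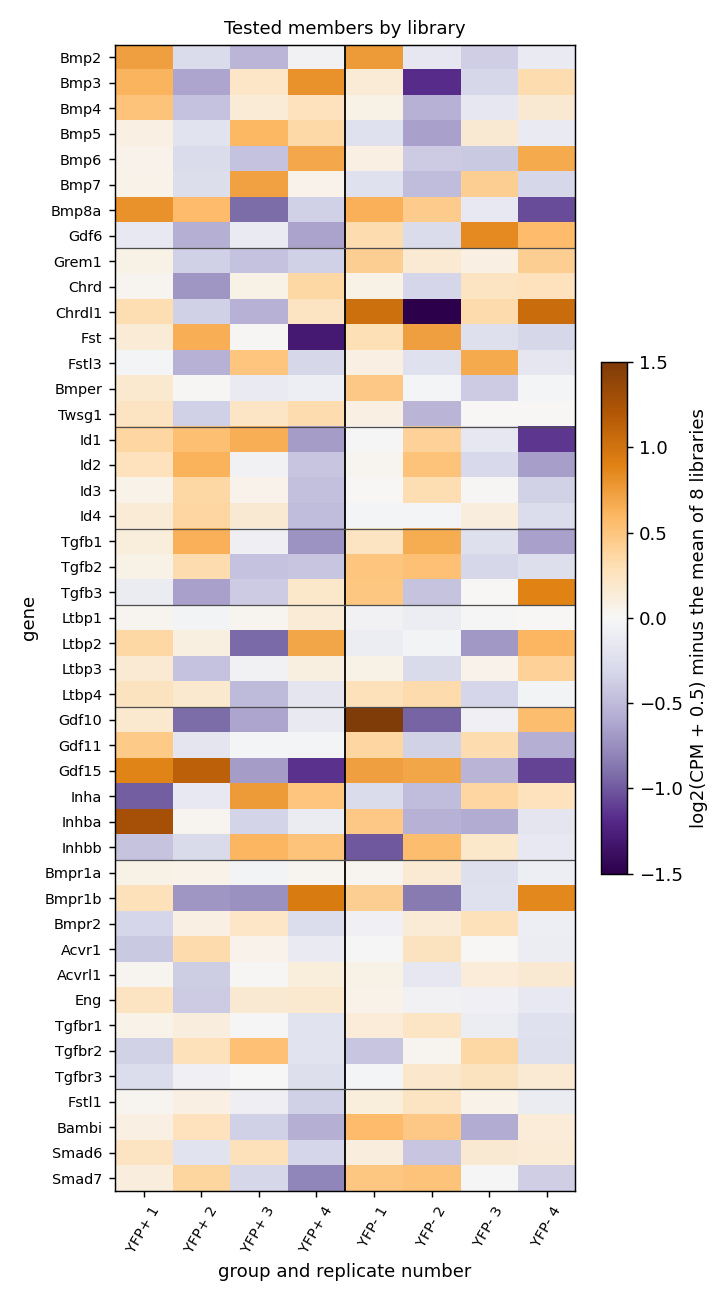
Deviation of each tested member (rows, ordered by role) from its mean over the 8 libraries, in log2 CPM with a small pseudocount, for YFP-positive libraries 1 to 4 and YFP-negative libraries 1 to 4 (columns). Columns of equal number have like colours in most rows, and in Grem1, Gdf6 and Tgfbr3 the YFP-positive side is the lower one.

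Markers of fibroblasts and other cells, and the mitochondrial share, also differed between the groups. Of 11 markers of trophocytes and adventitial fibroblasts, the cells known to secrete Grem1, 7 fell and 0 rose, and their summed level was 6900 to 10146 CPM in YFP-positive and 11470 to 15582 CPM in YFP-negative libraries. C3 held 94.3% to 96.8% of that sum; without it the sum was 278 to 410.0 CPM in YFP-positive and 403 to 671 CPM in YFP-negative libraries, and lower in 4 of 4 pairs. Of 11 markers of subepithelial fibroblasts and telocytes, cells known for BMP ligands, 2 rose and 1 fell, and the sum was 3170 to 5257 CPM and 3057 to 4373 CPM, higher in 4 of 4 pairs. Without Col18a1, its most abundant gene, the sum was 2059 to 2923 CPM and 2099 to 2692 CPM, higher in 3 of 4 pairs. The median log2 fold change of the list was 0.05, and that of Pdgfra, which marks these cells, was -0.0037 (higher in 2 of 4 pairs). Foxl1, a defining telocyte marker, was listed at 0 in every library, as was the leukocyte marker Itgam. The reason was not tested, and the listed 0 does not by itself show that telocytes were absent. Of 9 smooth muscle markers 3 rose and 0 fell, with a sum of 666 to 1299 CPM and 574 to 914 CPM, and of 9 fibroblast markers 0 rose and 5 fell. Of 8 pericyte markers 1 rose and 1 fell (1439 to 1790 CPM in YFP-positive, 1688 to 2009 CPM in YFP-negative libraries). Rgs5 fell, and without it the sum was 562 to 956 CPM and 550.0 to 845 CPM, higher in 4 of 4 pairs, with 5 of 7 tested markers above 0 in log2 fold change. Of 11 enteric glia markers 0 rose and 1 fell (163 to 451 CPM and 169 to 430 CPM); without Ncam1 the sum was 18.6 to 21.1 CPM and 24.4 to 82.8 CPM. Of 15 epithelial markers 11 were tested, 0 rose and 0 fell. Among these, 9 had a log2 fold change above 0 and 2 below it, and the summed level of the list was higher in 2 of 4 pairs. The sum of the leukocyte markers was higher in 4 of 4 pairs. The share of counts in mitochondrial genes was 7.98%, 7.99%, 7.71% and 9.43% in YFP-positive replicates 1 to 4, against 8.27%, 8.75%, 8.07% and 12.4% in YFP-negative replicates 1 to 4, lower in 4 of 4 pairs. The part of these markers and of the mitochondrial share in the changes of the ligands and of Grem1 was not tested. In bulk RNA, fewer cells of a type and less RNA per cell cannot be told apart.

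Of 79 other genes of the pathways, 59 were tested, and their log2 fold changes in the blocked fit had a median of -0.05. In that fit 0 rose and 4 fell, where 0.696% of all genes were higher and 1.59% lower. DESeq2 with the block also called Tgfbi higher (log2 fold change 0.25, adjusted p = 0.0352) and Sostdc1 lower (-2.55, adjusted p = 0.00786). Sostdc1 held 60 counts over the YFP-positive and 212 over the YFP-negative libraries. In edgeR with the block their adjusted p-values were 0.0588 and 0.103. Without the block 0 passed. Among those that fell were Thbs1, whose product can activate latent TGF-beta, the antiproliferative gene Tob1 and the matrix proteoglycan gene Dcn, whose product binds TGF-beta, with log2 fold changes of -0.39, -0.41 and -0.42. Smad1, Smad5, Smad9, Smad2, Smad3 and Smad4, the receptor-regulated and common Smad genes, did not pass.

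The authors' deposited table, from their own comparison, had an adjusted p of 0.05 or below for 3.01% of the genes with one (0.939% higher, 2.07% lower) and for 9 members, 4 higher and 5 lower. They were the 7 members above with Inhba (log2 fold change 0.43, adjusted p = 0.00608 in the authors' deposited table) and Smad7 (-0.31 and 0.0481). Of the 7 members called here, Grem1 and Bmp5 kept the call in all 7 other blocked fits, the highest adjusted p being 0.0126 and 0.0350 (edgeR, without both libraries of replicate 3). The other 5 lost it when pairs were left out. Bmp3, Bmp7, Gdf6 and Tgfb3 were not called without both libraries of replicate 1, 3 or 4, with adjusted p-values up to 0.116, 0.182, 0.230 and 0.126, and Tgfbr3 without those of replicate 3 or 4, up to 0.118 (edgeR with the block).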

How the data were processed

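Per the labels' protocols, sorted cells were lysed and total RNA libraries were made with Takara's stranded Pico kit and sequenced on an Illumina NextSeq. Per the submitters' processing notes, cutadapt 3.4, STAR 2.7.3a, featureCounts 2.0.1 and DESeq2 were used on GRCm38; the annotation and whether counting used strand were not given in the sources used here, so that reads of overlapping genes on opposite strands may not be separated. The deposited table holds a raw count for every gene in every library (whole numbers). Per the file headers, it also holds log2 fold changes, p-values and adjusted p-values of the authors' own comparison; 8 columns of normalised values were not used.

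Counts were tested with edgeR 4.0.16 (R 4.3.3, limma 3.58.1): filterByExpr, TMM factors, robust quasi-likelihood fit, two-sided test, Benjamini-Hochberg adjustment over 15945 genes, threshold 0.05. The first fit had the group alone and a further one the replicate number as a block. Deviations of equally numbered libraries from their group means correlated at 0.233, 0.487, 0.376 and 0.376 (highest between different numbers 0.0456), and each of the 8 libraries was closest to its partner. The numbers were therefore treated as pairs, which rests on the data and not on the labels, and blocked values are given. DESeq2 1.42.0 was an alternative. The fits were tested on simulated data with pair effects built in. Such a test cannot show whether the real libraries are pairs. Standard errors and 95% intervals came from the quasi-likelihood F. RPKM used GENCODE M21 exon lengths. Promoters are from RefSeq (GRCm38.p6). For the members, records on chromosome 18, where Bambi and Smad7 lie, were not used, and 34 of 48 members matched.

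Members, lists and roles were chosen with earlier results of these data known. Values per library are given for members called in either fit, a fixed set of ligands, antagonists and targets, and the receptor with the highest mean RPKM; Inhba was added after its values were seen. The result of 1 other pathway gene is not reported here. Replicates differed beyond sampling noise (chi-square per degree of freedom at least 56.4). The labels do not say that libraries are separate animals. In the blocked fit, p-values rest in part on how much the YFP difference varied between equally numbered pairs. In the fit without the block they rest in part on the spread between libraries of a group. Either spread may be technical. Both fits also draw a gene's spread toward that of other genes with a like level. A p-value therefore does not measure that gene's own spread alone. A gene at 1 CPM held 11.7 counts in the smallest library.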

Additional observations from a re-analysis of the deposited data

Results flagged for a closer look

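In 6 of 92 checks, 1 library of a group lay farther from the other 3 than 95% of such groups would show, where chance gives about 1 in 20. Replicate 1 accounted for 3 of them. Inhba was at 312 CPM in YFP-positive replicate 1, against 102 to 131 CPM in the other YFP-positive libraries. Grem1 was at 745 CPM in YFP-positive replicate 1, against 519 to 553 CPM in the others. Bmp2 was at 203 CPM in YFP-negative replicate 1, against 93.0 to 111 CPM in the others, while YFP-positive replicate 1 was at 200.1 CPM. The remaining 3 were low values in replicate 2. Eng was at 79.7 CPM in YFP-positive replicate 2, against 118 to 123 CPM. Twsg1 was at 113 CPM and Smad6 at 25.3 CPM in YFP-negative replicate 2, against 164 to 174 CPM and 37.0 to 38.7 CPM in the other YFP-negative libraries.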

How the results depend on the processing

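Members were called with the block and not without it; it changed no call other than those given. Without it, 0 members and 0 genes in either direction passed in edgeR with TMM factors, RLE factors, library sizes alone or no count filter, and with any 1 library left out; DESeq2 called 0 members and 2 genes, 0 higher and 2 lower. With the replicate block, edgeR called 111 genes higher and 253 lower (3 and 4 members; 0 and 4 of the other pathway genes). The block with library sizes alone gave 212 and 153 (6 and 3 members), the block with DESeq2 166 and 355 (4 and 5 members), and the block without a count filter 253 and 420 (4 and 5 members). Inhba and Smad7 were the members added in these last fits. Leaving out both libraries of a replicate number gave, with the block, 38 to 130 genes higher and 119 to 296 lower, against 0 when single libraries were left out without the block, and 1 to 3 members higher and 1 to 7 lower. Without replicate 2, Chrdl1, Gdf10 and Smad7 were added. The cause of these shifts was not tested. Library sizes alone moved the median of all genes by 0.0869 in log2 with the block.

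The ligand to antagonist difference of 0.60 was 0.59 from CPM sums and 0.59 without Bmp4, 0.56 to 0.63 with a replicate number left out, and 0.17 without Grem1. In an alternative chosen after seeing the data it was 0.42, with Nbl1 added to the antagonists. No called member turned in direction under any alternative. Members near 0 did. With library sizes alone, log2 fold changes turned to 0.033 (0.030 with the block) for Bmp2, 0.059 (0.070) for Tgfb1, 0.054 (0.080) for Bmper, 0.037 (0.018) for Acvr1, 0.058 (0.065) for Tgfbr1 and 0.022 without the block for Bmpr1b. Smad6 turned to -0.0034 with RLE factors, -0.0038 with DESeq2, -0.0037 with the replicate block, -0.0109 with the block and DESeq2 and -0.0011 with the block and no filter, and Id3 to -0.0017 with the block and DESeq2. Over the fits that left out libraries, the log2 fold changes that crossed 0 ran as follows: Acvr1 -0.19 to 0.0656, Bmp2 -0.36 to 0.27, Bmp6 -0.28 to 0.29, Bmp8a -0.25 to 0.43, Bmper -0.15 to 0.15, Bmpr1a -0.00886 to 0.12, Bmpr1b -0.52 to 0.24, Chrd -0.25 to 0.0794, Fst -0.44 to 0.12, Fstl3 -0.42 to 0.0564, Gdf11 -0.0816 to 0.26, Gdf15 -0.19 to 0.51, Id2 -0.00732 to 0.43, Id3 -0.11 to 0.15, Inha -0.12 to 0.49, Inhbb -0.0589 to 0.56, Ltbp2 -0.0801 to 0.43, Ltbp3 -0.23 to 0.000983, Ltbp4 -0.23 to 0.0155, Smad6 -0.12 to 0.16, Tgfb1 -0.27 to 0.23, Tgfbr1 -0.0997 to 0.0461, Tgfbr2 -0.0327 to 0.30. Bmp8a, Inha and the 3 untested members had few counts, and their changes are not resolved here.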
